A study of Mus musculus with 16 samples.

Results

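The small leucine-rich proteoglycans are extracellular matrix proteins that bind collagen fibrils. Of their genes, 8 were followed among the 33641 gene symbols of the tables: Dcn, Lum, Bgn, Fmod, Ogn, Prelp, Aspn and Omd. They were picked by name, as members of 1 protein family, and each had a value in all 16 libraries. The libraries were bulk RNA-seq of mouse tissue, and the study asks what the loss of the RNA-binding protein HuR from fat cells alone changes in fat and in the heart. The hearts were left ventricles of 4 mice labelled Adipo-HuR KO (A25, A29, A30 and A31) and of 4 mice labelled wild-type (WT; A5, A7, A8 and A14). Subcutaneous white adipose tissue (scWAT) came from 3 mice labelled Adipo-HuR KO (A24, A26 and A30) and from 5 labelled WT (A5, A7, A8, A12 and A14). All 11 mice were of the C57BL/6J strain and 28 weeks old. No treatment is given for any of them, and the promoter that drives the deletion is not given in the sources used here. Whole tissue was sequenced, so that in these bulk samples fewer cells of a type and less RNA per cell cannot be told apart.

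Each member has a small core protein built of leucine-rich repeats, which in most members carries sugar chains. Decorin (Dcn), biglycan (Bgn) and asporin (Aspn) form class I, in which decorin and biglycan carry chondroitin or dermatan sulfate. Lumican (Lum), fibromodulin (Fmod), PRELP (Prelp) and osteomodulin (Omd) form class II, several of which can carry keratan sulfate, and osteoglycin (Ogn, also called mimecan) belongs to class III. The core proteins set the spacing and width of collagen fibrils, several of them bind growth factors of the TGF-beta family, and fibroblasts are a main source of them in heart and fat.

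The family's genes lie in groups on the chromosomes. In the RefSeq annotation of assembly GRCm38.p6, Dcn and Lum are neighbours on chromosome 10, Prelp and Fmod on chromosome 1, and Aspn, Omd and Ogn follow each other on chromosome 13 beside the related gene Ecm2, while Bgn stands alone on chromosome X. The chromosome 13 members lie within Cenpp, a centromere protein gene on the opposite strand, whose exons share 7 bases with those of Aspn and 0 with those of Omd and Ogn. Cenpp itself was at 1.84 to 2.66 TPM in hearts labelled KO, against 1.04 to 1.90 TPM in WT hearts. RefSeq promoters of that assembly were at hand for 6 of the 8 members, and 4 are printed because the data bear on them as neighbours: the Aspn and Ogn transcripts lie in 1 cluster and changed in unequal proportion in heart, and Prelp and Fmod lie side by side and had fold changes of opposite sign in scWAT, neither past the threshold with all libraries. Each is the 250 bases before the gene's start, 5′ to 3′ on the gene's own strand. Capitals mark matches, on either strand, to 1 of 6 short motifs that are spelled out below the sequences. The windows are chr13:49544193-49544442, plus strand, for Aspn; chr13:49607765-49608014, plus strand, for Ogn; chr1:133921402-133921651, minus strand, for Prelp; and chr1:134037004-134037253, plus strand, for Fmod.
Aspn: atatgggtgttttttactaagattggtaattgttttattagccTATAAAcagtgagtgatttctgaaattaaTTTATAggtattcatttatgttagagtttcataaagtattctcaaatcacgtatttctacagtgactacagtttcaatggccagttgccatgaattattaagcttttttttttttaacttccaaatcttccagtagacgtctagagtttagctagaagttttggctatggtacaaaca
Ogn: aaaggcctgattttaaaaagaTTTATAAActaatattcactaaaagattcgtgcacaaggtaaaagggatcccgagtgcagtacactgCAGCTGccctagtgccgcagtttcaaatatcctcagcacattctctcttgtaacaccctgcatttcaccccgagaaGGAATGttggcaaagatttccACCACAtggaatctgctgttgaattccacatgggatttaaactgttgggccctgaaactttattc
Prelp: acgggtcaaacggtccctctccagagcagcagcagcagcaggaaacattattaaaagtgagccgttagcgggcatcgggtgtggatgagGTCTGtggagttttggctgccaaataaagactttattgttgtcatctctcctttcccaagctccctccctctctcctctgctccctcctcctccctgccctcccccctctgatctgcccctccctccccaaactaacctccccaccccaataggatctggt
Fmod: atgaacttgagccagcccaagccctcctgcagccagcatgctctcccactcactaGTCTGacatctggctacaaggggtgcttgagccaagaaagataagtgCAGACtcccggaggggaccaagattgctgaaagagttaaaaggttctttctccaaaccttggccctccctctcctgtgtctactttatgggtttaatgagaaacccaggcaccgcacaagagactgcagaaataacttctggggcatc
The TATA box letters TATAAA were found in 2 of the 6 members' windows, those of Aspn and Ogn, and in 13.0% of 27025 promoters of the same length. The SMAD box letters CAGAC were found in Fmod and Prelp and in 42.1% of all promoters, a share that makes a match common. An E-box, CAGCTG, stood in Bgn and Ogn and in 12.8% of all promoters. The window of Ogn also held the TEAD motif CATTCC, which 12.6% of all promoters held, and the RUNX motif TGTGGT, which 14.2% held. No window of the 6 held the AP-1 motif TGANTCA, present in 6.87% of all promoters, and the window of Omd held none of the 6 motifs. The 2 TATAAA matches in the Ogn window overlap each other. These are matches of letters, and the data hold no measurement of binding at them.

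Levels are in TPM, a unit scaled for transcript length and to the same total in every library, so that levels of different genes can be compared. Depth per library is unknown, because TPM keeps none. Elavl1, the gene of HuR, stood at 42.9, 42.0 and 36.2 TPM in scWAT labelled KO (A24, A26 and A30), against 33.4, 34.5, 27.6, 19.5 and 19.0 TPM in WT scWAT (A5, A7, A8, A12 and A14). In hearts it stood at 10.3, 8.82, 15.9 and 8.45 TPM under the label KO (A25, A29, A30 and A31), against 6.66, 12.6, 12.04 and 10.4 TPM in WT (A5, A7, A8 and A14). It was thus not lower in scWAT labelled KO. A sum over all exons, which TPM per symbol is, cannot tell whether some of them were removed. Each of the 8 cardiomyocyte markers was above 1 TPM in all hearts and each of the 8 adipocyte markers in all scWAT libraries. One heart, A29, is labelled KO but lies with the WT hearts: over the tested genes its log2 levels correlated at 0.977 to 0.990 (Pearson's r) with the WT hearts and at 0.901 to 0.915 with the other hearts labelled KO. Heart results are therefore given with and without A29, and since A29 was singled out for lacking the differences, the values without it are no independent test of the label. Among scWAT libraries labelled KO, A24 and A30 held skeletal muscle transcripts (10 markers, summed level 3813 and 7785 TPM, 280 TPM in A26, against 8.45 to 823 TPM in WT). A26 held lymphocyte transcripts, with the 6 B cell markers summing to 512 TPM there and to 2.49 to 22.5 TPM in the other 7 scWAT libraries.

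In WT hearts decorin led the family and fibromodulin and osteomodulin were barely present. Mean levels in WT hearts were 188 ± 24.3 TPM for Dcn (SD, n = 4 for each gene), 70.9 ± 17.6 TPM for Bgn, 39.5 ± 6.80 TPM for Ogn, 17.6 ± 1.24 TPM for Lum, 11.7 ± 1.54 TPM for Aspn, 10.6 ± 3.61 TPM for Prelp, 0.37 ± 0.06 TPM for Omd and 0.35 ± 0.27 TPM for Fmod. The ranges of Bgn and Ogn overlapped, as did those of Aspn and Prelp and of Omd and Fmod, and the other neighbours in this order were apart in every library. WT scWAT had another order. There Prelp (994 ± 172 TPM, n = 5) and Dcn (797 ± 349 TPM) stood at the top with overlapping ranges, followed by Bgn (234 ± 23.2 TPM), Lum (54.4 ± 7.18 TPM), Ogn (43.4 ± 14.8 TPM), Aspn (21.5 ± 6.27 TPM), Fmod (1.91 ± 0.37 TPM) and Omd (1.35 ± 0.60 TPM). By its mean Prelp ranked 4390th of all genes in WT heart and 121st in WT scWAT, and Ogn ranked 1337th in WT heart and 3176th in WT scWAT.

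The tissue comparison, WT heart over WT scWAT, sets the members' levels side by side without the deletion. PRELP, which links basement membranes to collagen, was 5.50, 13.97, 11.8 and 11.2 TPM in WT hearts (A5, A7, A8 and A14), against 821, 1028, 1051, 1234 and 833 TPM in WT scWAT (A5, A7, A8, A12 and A14). The groups were far apart, with a mean 93.6 times higher in WT scWAT (log2 fold change on the log2(TPM + 1) scale -6.47, SE 0.23, limma adjusted p = 1.16e-10). Dcn, Bgn, Lum, Fmod and Aspn were also lower in WT heart on the TPM scale, by 0.79 (Aspn) to 1.97 (Dcn) log2 units, so that 6 of the 7 members tested passed in this direction and none in the other. That share has to be read against the background: 78.5% of 13093 tested genes were lower in heart and 8.12% higher, and the median gene was 1.27 log2 units lower. Fmod averaged 0.35 TPM in WT hearts and passed the filter of 1 TPM only through WT scWAT. It had to be lower in WT heart, and its call says no more than its levels do. Mitochondrially encoded transcripts took 51.9% to 60.6% of the TPM of WT hearts, against 6.14% to 14.4% in WT scWAT.
Scaled by the median of ratios, Prelp was still lower in WT heart (log2 fold change -5.07, limma adjusted p = 8.04e-10), and so was Bgn (-0.29, limma adjusted p = 0.0189). Osteoglycin was then higher in WT heart (1.35, limma adjusted p = 0.00128), and so was asporin (0.59, limma adjusted p = 0.0375), against 34.2% of 12898 genes lower and 33.1% higher. On the TPM scale Ogn had stood at 43.5, 46.4, 36.6 and 31.3 TPM in WT hearts, against 26.5, 52.1, 61.5, 29.9 and 46.8 TPM in WT scWAT, 2 overlapping groups. Omd had a mean under 1 TPM over these libraries and was not tested. The groups were apart, with WT heart lower, for Prelp, Dcn, Bgn, Lum, Fmod and Omd, where 73.2% of the tested genes were. Heart and scWAT tables are named in different ways, the heart ones with a sequencing run and lane, and tissue and run cannot be told apart.

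In hearts labelled KO, 3 of the 4 libraries held more transcript of every member than any WT heart, and A29 did not. The class I genes come first. Decorin, which binds collagen and TGF-beta, stood at 723, 180, 662 and 825 TPM in hearts labelled KO (A25, A29, A30 and A31), against 152, 196, 205 and 197 TPM in WT hearts (A5, A7, A8 and A14). Biglycan, its closest relative, stood at 444, 48.2, 744 and 404 TPM in hearts labelled KO, against 44.8, 77.7, 82.9 and 78.3 TPM in WT hearts. Asporin, which lacks the usual sugar chain of the class, stood at 93.0, 11.9, 98.2 and 133 TPM in hearts labelled KO, against 10.6, 11.9, 13.7 and 10.4 TPM in WT hearts. For all 3 genes A25, A30 and A31 were above every WT heart and A29 was inside the WT range, so that the groups as labelled overlapped.

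**Figure D1:**
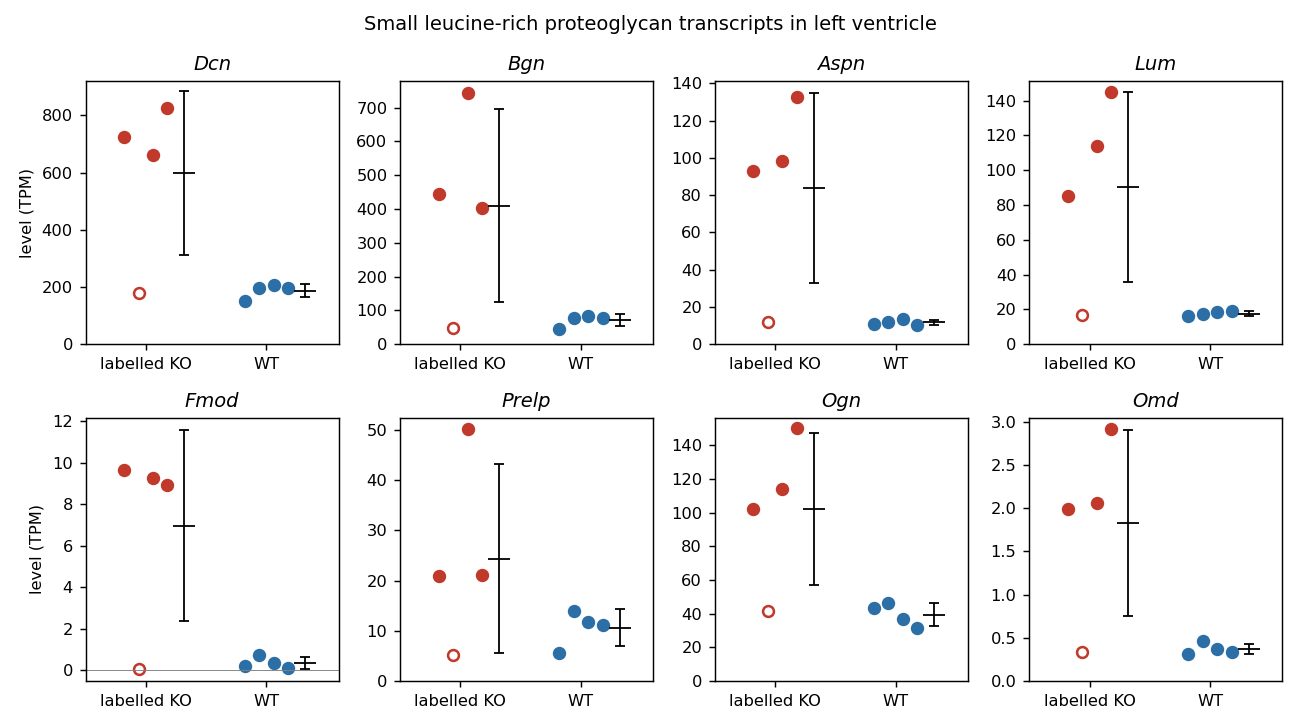
Level of each member in the left ventricle (TPM, linear axis), in hearts labelled KO (red) and WT hearts (blue); each point is 1 mouse, the open point is A29, and the bar beside the points is the mean ± SD (n = 4 and 4). In every panel the 3 filled red points lie above all WT points, and A29 lies beside the WT points.

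The class II genes gave the same split with different sizes. Lumican, a regulator of fibril width, stood at 85.3, 17.0, 114 and 145 TPM in hearts labelled KO, against 16.1, 17.1, 18.3 and 18.9 TPM in WT hearts. Fibromodulin, which binds collagen and helps guide its cross-linking, stood at 9.63, 0.064, 9.28 and 8.90 TPM in hearts labelled KO, against 0.20, 0.73, 0.36 and 0.11 TPM in WT hearts. Lum varied little among WT hearts, and A29 was the lowest of all hearts for Fmod. PRELP stood at 20.9, 5.20, 50.2 and 21.1 TPM in hearts labelled KO, against 5.50, 13.97, 11.8 and 11.2 TPM in WT hearts. Osteomodulin, first known from bone matrix, stood at 1.995, 0.34, 2.06 and 2.92 TPM in hearts labelled KO, against 0.32, 0.46, 0.37 and 0.34 TPM in WT hearts. In proportion Prelp had the smallest gap between A25, A30 and A31 and the WT hearts, 20.9 against 13.97 TPM. Osteoglycin of class III stood at 102, 41.7, 114 and 150.5 TPM in hearts labelled KO, against 43.5, 46.4, 36.6 and 31.3 TPM in WT hearts, with A29 inside the WT range.
The share of mitochondrially encoded transcripts split the hearts in the same way. It was 46.2%, 55.7%, 43.4% and 48.9% of the TPM in hearts labelled KO (A25, A29, A30 and A31), against 51.9% to 60.6% in WT hearts, and its part in the members' levels was not tested.

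The groups as labelled overlapped for all 8 members, and 3.71% of all genes were higher without overlap. With all 8 hearts, no member passed the threshold (limma, adjusted p under 0.05). The same was true of nearly all genes: 6 of 11981 tested genes were called, all higher in hearts labelled KO, a background of 0.0501%. Without adjustment 7 of the 8 members had p under 0.05, as had 2947 of all genes, and the exception was Prelp. Fold changes in heart and scWAT are log2 differences of log2(TPM + 1), KO over WT, given relative to the median of all tested genes, which was itself 0.26 in heart. They ran from 0.58 for Prelp (SE 0.53, limma adjusted p = 0.340) to 2.07 for Aspn (SE 0.60, limma adjusted p = 0.142). Single libraries moved the Prelp value, which was 0.23 without A30 (limma adjusted p = 0.649). In the exact permutation test of single genes, 2-sided, p was 0.0857 for Aspn, Ogn and Omd, 0.114 for Dcn, Lum and Bgn, 0.143 for Fmod and 0.314 for Prelp, where 4 against 4 cannot go below 0.0286. With the shared fit over all 16 libraries 3 members passed, Aspn (limma adjusted p = 0.0406), Fmod (0.0443) and Bgn (0.0476), against 6.24% of all genes higher. With array weights, by which limma gives less weight to libraries that lie far from their group, all 8 passed, against 43.1% of all genes higher. Fmod and Omd passed the filter of 1 TPM in heart only through the hearts labelled KO. Their results in these fits thus say no more than their levels do.

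Without A29 each of the 8 members was higher in hearts labelled KO (limma, adjusted p under 0.05), and the groups did not overlap for any of them. Of all 12081 genes then tested, 34.8% were called higher and 4.16% lower, and 45.3% were higher without overlap, so that a call is common in this comparison. Mean levels in the hearts labelled KO, now 3, were 2.90 times those of WT hearts for Prelp, 3.10 for Ogn, 3.92 for Dcn, 6.29 for Omd, 6.51 for Lum, 7.48 for Bgn, 9.25 for Aspn and 26.4 for Fmod. Fmod and Omd averaged 0.35 and 0.37 TPM in WT hearts and passed the filter of 1 TPM only through the hearts labelled KO, so that they had to differ, and their calls say no more than their levels do.

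The sizes fell into an order. Relative to the median gene, which was shifted by 0.39 without A29, Aspn rose by 2.71 log2 units (SE 0.18, limma adjusted p = 6.07e-06), Bgn by 2.48 (SE 0.26, limma adjusted p = 5.92e-05), Lum by 2.22 (SE 0.19, limma adjusted p = 1.74e-05) and Dcn by 1.58 (SE 0.14, limma adjusted p = 1.84e-05). Ogn rose by 1.21 (SE 0.19, limma adjusted p = 0.0002) and Prelp by 1.00 (SE 0.36, limma adjusted p = 0.0137). On the same scale the value was 2.56 for Fmod and 0.88 for Omd, both held down by the pseudocount of 1 at levels this low. The exact permutation p was 0.0286 for each member, the smallest that 3 against 4 allows. It adds nothing to the absence of overlap, and it is no independent test, since A29 was singled out for lacking the differences.

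**Figure D2:**
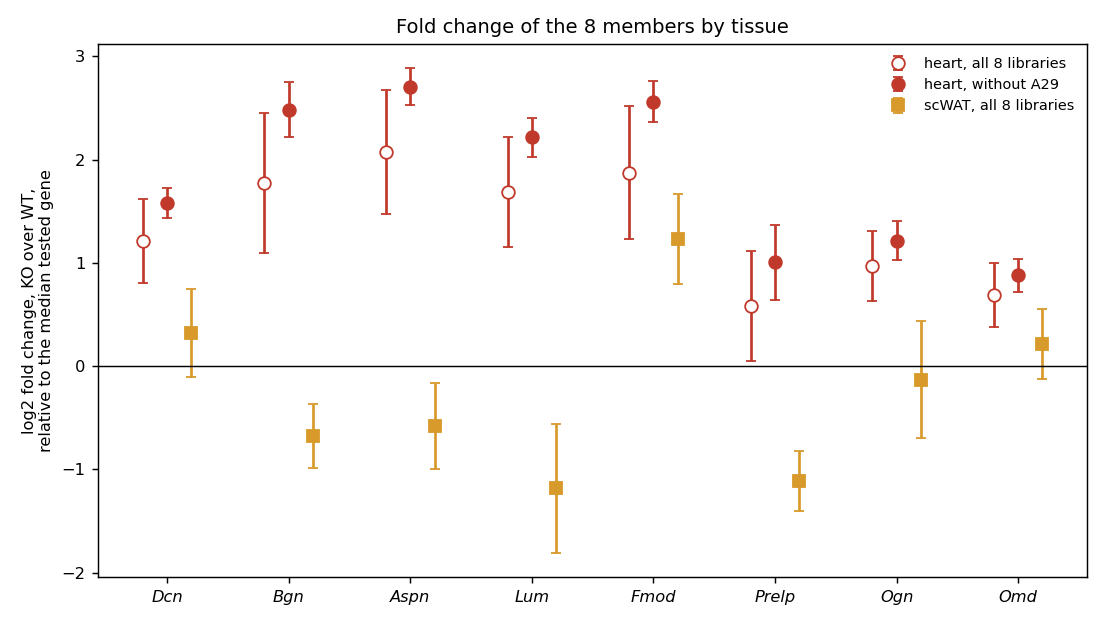
Log2 fold change of each member, KO over WT, relative to the median tested gene, with its standard error: heart with all 8 libraries (open red circles), heart without A29 (filled red circles) and scWAT (ochre squares). Without A29 the heart values run from 0.88 for Omd to 2.71 for Aspn, and in scWAT 3 members lie above 0 and 5 below.

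The make-up of the family differed among hearts. Biglycan took 29.99%, 15.8%, 41.5% and 23.9% of the summed TPM of the 8 members in hearts labelled KO (A25, A29, A30 and A31), against 16.4% to 22.5% in WT hearts. Decorin took 48.9%, 59.1%, 36.9% and 48.8% in hearts labelled KO, against 53.9% to 56.7% in WT hearts. In A30 biglycan exceeded decorin, with a Bgn to Dcn ratio of 1.12, while the ratio was 0.614, 0.268 and 0.490 in A25, A29 and A31 and 0.295 to 0.403 in WT hearts. Asporin took 6.28%, 3.91%, 5.48% and 7.85% in hearts labelled KO, against 2.99% to 3.89% in WT hearts, and osteoglycin 6.90%, 13.7%, 6.36% and 8.90%, against 9.003% to 15.9% in WT hearts. With Dcn left out of the sum, the shares of Bgn and Aspn overlapped even without A29: Bgn took 46.7% to 65.7% in A25, A30 and A31, against 37.0% to 52.0% in WT hearts, and Aspn 8.68% to 15.3%, against 6.91% to 8.77% in WT hearts.
The chromosome 13 neighbours differed in proportion among hearts. The Aspn to Ogn ratio was 0.91, 0.29, 0.86 and 0.88 in hearts labelled KO (A25, A29, A30 and A31), against 0.24 to 0.38 in WT hearts. So did the chromosome 1 neighbours, with a Prelp to Fmod ratio of 2.17, 81.4, 5.41 and 2.37 in hearts labelled KO, against 19.1 to 102 in WT hearts. These shares and ratios are within a library and do not depend on the total that TPM is scaled to. They were not tested.

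**Figure D3:**
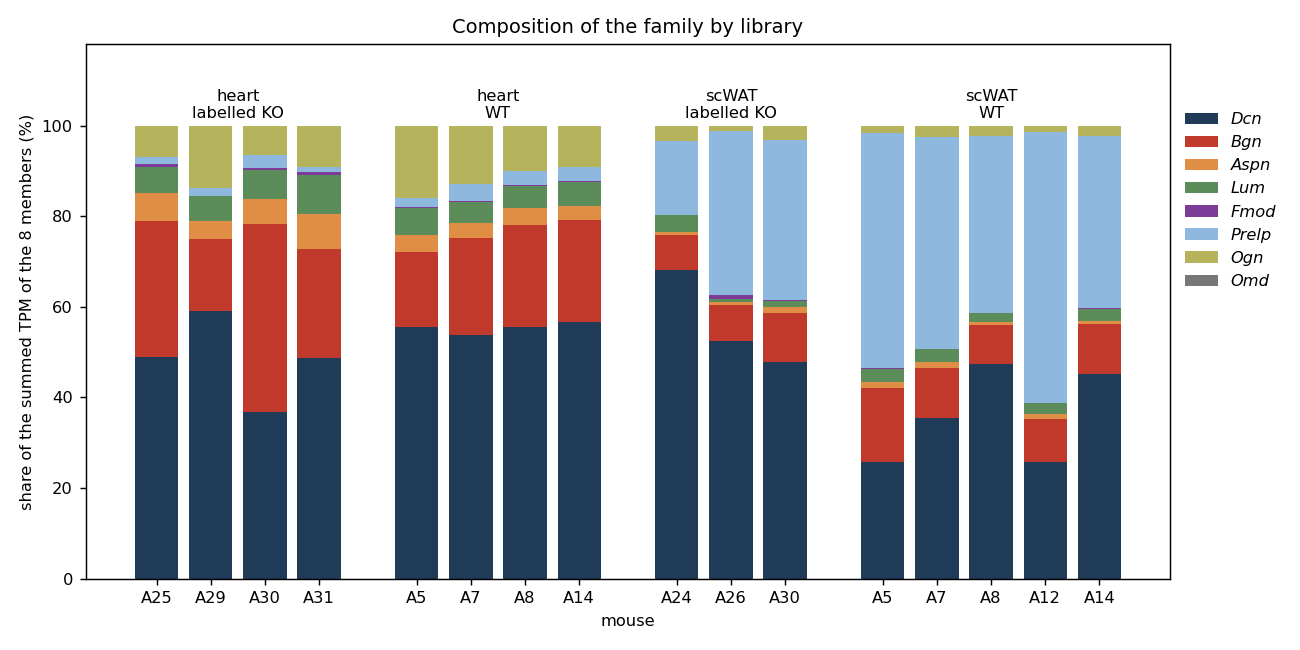
Share of each member in the summed TPM of the 8 members (percent, stacked bars), 1 bar per library, by tissue and label. In heart Dcn and Bgn make up most of the sum and Bgn takes 23.9% to 41.5% in A25, A30 and A31; in scWAT Prelp takes 16.3% to 36.1% in libraries labelled KO, against 38.1% to 59.7% in WT.

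In A25, A30 and A31 the summed transcripts of 5 fibrillar collagen chains stood further above WT hearts than those of the family as a whole. The 8 members summed to 1480, 304, 1793 and 1690 TPM in hearts labelled KO, against 273 to 369.5 TPM in WT hearts. The 5 fibrillar chains Col1a1, Col1a2, Col3a1, Col5a1 and Col5a2 summed to 486, 38.3, 1860 and 707 TPM in hearts labelled KO, against 26.5 to 81.2 TPM in WT hearts. The ratio of members to fibrillar chains was 3.04, 7.95, 0.964 and 2.39 in hearts labelled KO (A25, A29, A30 and A31), against 10.3, 4.49, 4.76 and 4.54 in WT hearts (A5, A7, A8 and A14). Summed over the family, A25, A30 and A31 had thus less proteoglycan transcript per transcript of the summed 5 chains than any WT heart. A29 and A5, the hearts with the least transcript of these chains, had the most. Taken singly, 6 members were lower per collagen transcript in these 3 hearts, and Fmod and Aspn overlapped. The 5 chains themselves averaged 1018 TPM in these 3 hearts, against 65.5 TPM in WT hearts. The share of all genes that were lower per collagen transcript was not computed, so that the count cannot be read as particular to the family. Per 1000 TPM of the 5 chains, Fmod reached 19.8 TPM in A25, 4.99 TPM in A30 and 12.6 TPM in A31, against 1.44 to 9.03 TPM in WT hearts, and Aspn reached 191 TPM in A25, 52.8 TPM in A30 and 188 TPM in A31, against 136 to 401 TPM in WT hearts.

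Set against the summed fibroblast markers Pdgfra, Pdgfrb and Dpt, a sum that is mostly Dpt, the family stood higher in A25, A30 and A31 than in WT hearts, and with other fibroblast genes the direction differed. The ratio of the 8 members to the 3 markers was 11.3, 7.18, 10.4 and 9.26 in hearts labelled KO, against 8.21, 6.69, 6.19 and 6.72 in WT hearts. Taken singly, a division chosen after the values were seen, 5 members were higher per transcript of these 3 markers in A25, A30 and A31 than in any WT heart. Those were Bgn (2.21 to 4.31 in A25, A30 and A31, against 1.35 to 1.51 in WT hearts), Aspn (0.57 to 0.73 in these 3 hearts, against 0.20 to 0.32 in WT hearts), Lum (0.65 to 0.79, against 0.31 to 0.49 in WT hearts), Fmod and Omd. The other 3 overlapped: Dcn lay at 3.83 to 5.52 in these 3 hearts, against 3.44 to 4.57 in WT hearts, Ogn at 0.66 to 0.82, against 0.60 to 1.31 in WT hearts, and Prelp at 0.12 to 0.29, against 0.17 to 0.26 in WT hearts. Of all 12081 genes, 3.98% were higher per marker transcript without overlap and 79.5% lower. Only Bgn, Aspn and Lum can be set against that share. Fmod and Omd, at means of 0.35 and 0.37 TPM in WT hearts, passed the filter of 1 TPM only through the hearts labelled KO. With A29 included no member was free of overlap, with 0.584% of genes higher and 17.2% lower.
The result depends on the marker. Against each of the 10 genes of the fibroblast list in turn, a division added after the values were seen, the sum of the 8 members was higher in A25, A30 and A31 than in every WT heart for 6 genes, lower for 2 and overlapping for 2. It was lower per transcript of Pi16 and Mfap5, genes of adventitial fibroblasts that were themselves 8.03 and 24.2 times the WT mean in A25, A30 and A31. It overlapped per transcript of Dpt alone (12.8, 13.2 and 10.4 in these 3 hearts, against 9.15 to 11.5 in WT hearts) and of Tcf21. Per Pdgfrb, a gene at 1.06 times the WT mean, it was 217, 82.8 and 211 in these 3 hearts, against 24.5 to 52.0 in WT hearts. The number of members higher without overlap ran from 0 (per Mfap5) to 8 (per Gsn). Gsn was at 1.07 times the WT mean in these 3 hearts, and without division 45.3% of all genes were higher there without overlap. Shares over all genes were not computed for these 10 divisions, so that their counts cannot be read as particular to the family.

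**Figure D4:**
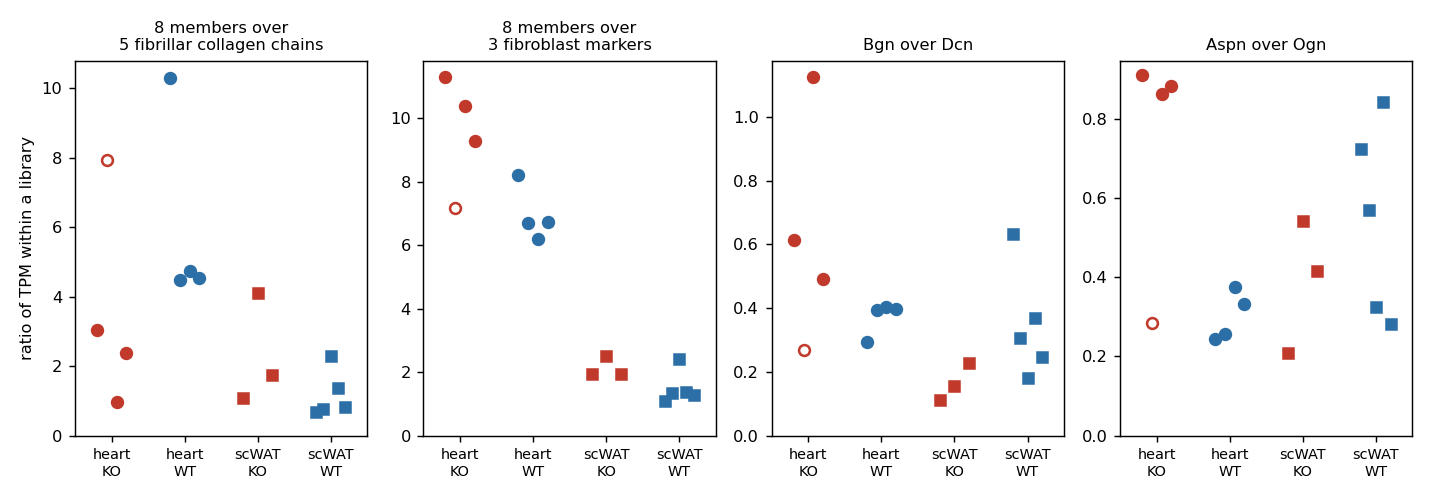
Ratios of TPM within each library by tissue and label (circles heart, squares scWAT, red labelled KO, blue WT, open circle A29): the 8 members over 5 fibrillar collagen chains, the 8 members over 3 fibroblast markers, Bgn over Dcn and Aspn over Ogn. The 3 filled red circles lie below all WT hearts for the collagen ratio, 0.964 to 3.04 against 4.49 to 10.3, and above them for the other 3 ratios.

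Some cell type markers moved with the members in heart, and their part in the members' levels was not tested. Of the 55 tested marker genes 0 passed with all hearts (27 with an unadjusted p under 0.05, limma, as had 2947 of all 11981 genes). Without A29 37 passed in either direction, where 34.8% of all genes were called higher and 4.16% lower. Lower were 4 cardiomyocyte genes, 1 adipocyte gene and 1 skeletal muscle gene. Medians of the endothelial and smooth muscle lists were then -0.12 and 0.03 log2 units relative to the median gene. Activated fibroblast markers (7 genes, Postn and Cthrc1 among them) summed to 1185, 56.2, 1316 and 1567 TPM in hearts labelled KO, against 56.1 to 96.7 TPM in WT hearts, and all 7 were above 1 TPM in A25, A30 and A31, against 3 or 4 in WT hearts. Macrophage markers (6 genes, all above 1 TPM in every heart) summed to 512, 68.8, 543 and 580.0 TPM in hearts labelled KO, against 75.4 to 119 TPM in WT hearts. General fibroblast markers (10 genes) summed to 973, 389, 1019 and 986 TPM in hearts labelled KO, against 327 to 516 TPM in WT hearts. Most of that sum in WT hearts was Gsn, so that it does not describe each gene of the list. In A25, A30 and A31 Gsn averaged 1.07 times the WT mean, Pdgfrb 1.06 times and Mfap5 24.2 times. Cardiomyocyte markers (8 genes) summed to 27863, 36833, 28530.2 and 22696 TPM in hearts labelled KO, against 29794 to 41056 TPM in WT hearts. Tendon and cartilage markers summed to 165, 3.497, 189 and 143 TPM in hearts labelled KO, against 2.33 to 5.61 TPM in WT hearts, and 3 of the 8, Comp, Thbs4 and Scx, carried that sum. The defining marker Tnmd was at 0.46, 0, 0.34 and 0.47 TPM in hearts labelled KO and listed at 0 in all WT hearts, and Col2a1 and Acan were at most 0.14 TPM.

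The genes around the family were counted by list, all over the same tests. With all 8 hearts, 0 of the 93 tested genes in the 10 lists passed, and 46 had an unadjusted p under 0.05 (limma). The counts below are without A29 and stand beside the 34.8% of all genes that were higher and the 4.16% that were lower. Of the 11 tested fibrillar and fibril-associated collagens, 10 rose and 0 fell, with a median of 2.25 log2 units relative to the median gene. Col3a1, the main partner of type I collagen, rose by 3.86 (limma adjusted p = 0.000139), and Col12a1, a fibril-associated collagen, by 2.25 (limma adjusted p = 1.90e-05). Of the 7 tested cross-linking enzymes 6 rose, among them Lox, the lysyl oxidase that starts collagen cross-links, by 4.13 (limma adjusted p = 7.61e-06) and its relative Loxl3 by 2.80 (limma adjusted p = 2.73e-05).

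Enzymes that build the sugar chains had medians near that of all genes. Of the 17 tested enzymes of the linker and the chondroitin and dermatan sulfate chains, 10 rose and 0 fell, with a median of 0.29. Dse and Dsel, the epimerases that turn chondroitin into dermatan sulfate, rose by 1.63 (limma adjusted p = 9.0e-05) and 1.00 (limma adjusted p = 0.000305). Of the 5 tested keratan sulfate enzymes 1 rose, the galactosyltransferase B4galt1 (0.59, limma adjusted p = 0.0250), with a list median of 0.07. Of the 6 tested proteases and helpers that process the cores 5 rose, including Pcolce, an enhancer of procollagen C-proteinase (1.93, limma adjusted p = 0.000117), and the membrane protease Mmp14 (1.53, limma adjusted p = 0.00308).

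Growth factor genes and receptors gave mixed counts. Of the 11 TGF-beta ligands, receptors and latent binding proteins 6 rose, with a median of 0.76, among them the ligand Tgfb3 (1.74, limma adjusted p = 9.0e-05) and the matrix protein Ltbp2 (3.81, limma adjusted p = 3.37e-05). Of the 8 genes often cited as TGF-beta targets 7 rose, with a median of 1.84, among them Postn, the matrix protein periostin and also 1 of the activated fibroblast markers (5.89, limma adjusted p = 1.53e-06). Of the 12 tested receptors reported to bind decorin or biglycan 8 rose, including the innate receptor Tlr2 (1.46, limma adjusted p = 9.60e-05) and its partner Cd14 (1.86, limma adjusted p = 0.000107). Of 13 tested large or basement membrane proteoglycans 7 rose and 2 fell. Versican (Vcan), a large proteoglycan of loose matrix, rose by 2.75 (limma adjusted p = 2.59e-05), and those that fell were glypican-1 (Gpc1, -1.19, limma adjusted p = 0.0334) and Spock2 (-1.10, limma adjusted p = 0.0269). Outside the 8 members, 3 relatives of the family were tested: Tsku (1.33, limma adjusted p = 0.000553) and Ecm2, the neighbour of Aspn (0.86, limma adjusted p = 0.000819), rose, and Podn had a value of -0.32 (limma adjusted p = 0.914).

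Some heart transcripts followed single members closely from library to library. For each member the 2 other genes with the smallest root mean square difference of centred log2(TPM + 1) over the 8 hearts were taken from 11016 genes. For Dcn these were Vkorc1 and Dse (0.07 and 0.08 log2 units, with a median of 0.80 over all genes), for Bgn Loxl2 and Adamtsl2 (0.19 each), and for Aspn Lyz2 and Serpinb1c (0.12 and 0.15). For Lum they were Cd300c2 and Fcgr1, for Fmod Fcgr3 and Emp1, for Ogn Milr1 and Tnfaip6, for Prelp Sbno2 and Laptm5, and for Omd Ptgr1 and Batf. Within the family Ogn and Omd were nearest to each other on this scale (0.21), then Fmod and Aspn (0.25). Prelp was farthest from its nearest relative (0.57, to Dcn). Fmod and Omd are held down by the pseudocount of 1, so that nearness to them is not likeness of fold change. Without A29 the mean was 6.29 times that of WT hearts for Omd and 3.10 for Ogn, and 26.4 for Fmod and 9.25 for Aspn. All points share the split of A25, A30 and A31 from the other hearts.

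In scWAT the members went different ways. The 1 member whose groups did not overlap was Prelp, at 345, 362 and 808 TPM in libraries labelled KO (A24, A26 and A30), against 821, 1028, 1051, 1234 and 833 TPM in WT (A5, A7, A8, A12 and A14). On the log2 scale the difference was -1.11 (SE 0.29, limma adjusted p = 0.216), and the exact permutation p was 0.0179, the smallest that 3 against 5 allows. Groups were apart in this direction for 5.06% of 13682 genes. Without A30 Prelp passed (-1.50 log2 units, limma adjusted p = 0.0260), where 0.249% of genes were called lower. A30 was the library labelled KO nearest to WT for Prelp, so that leaving it out had to widen the gap. That call is thus no independent test. With each library left out in turn the value ran from -1.50 to -0.88. Part of the Prelp exons, 350 of 3615 bases, lies opposite a predicted gene on the other strand, and since no source states that counting used strand, reads of the 2 cannot be told apart.

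Fibromodulin was at 1.73, 10.6 and 9.50 TPM in scWAT labelled KO, against 1.36, 1.85, 2.31, 1.82 and 2.19 TPM in WT. A26 and A30 were thus above all WT libraries and A24 was among them, and the log2 difference was 1.23 (SE 0.44, limma adjusted p = 0.248). Without A24 Fmod passed (1.92, limma adjusted p = 0.0355), where 0.0586% of genes were called higher. Leaving out A24, the library among the WT values, had to widen the gap, and that call is no independent test either. With each library left out in turn the value ran from 0.86 to 1.92. Of the 2 libraries high in Fmod, A30 held the skeletal muscle transcripts and A26 the lymphocyte transcripts described above, and their part in the Fmod level was not tested. The Prelp to Fmod ratio was 199, 34.0 and 85.1 in scWAT labelled KO, against 380 to 678 in WT scWAT.

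**Figure D5:**
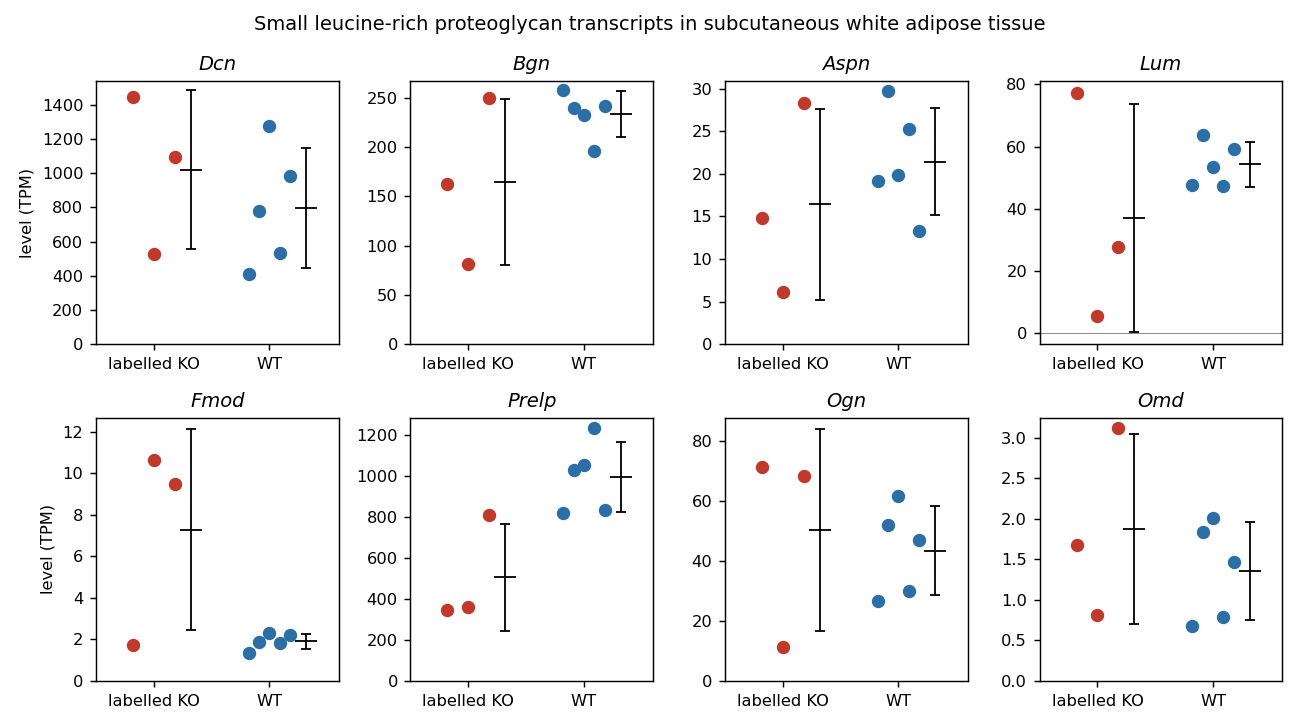
Level of each member in subcutaneous white adipose tissue (TPM, linear axis), in libraries labelled KO (red, n = 3) and WT libraries (blue, n = 5); each point is 1 mouse and the bar beside the points is the mean ± SD. Prelp is the panel without overlap, with 345 to 808 TPM in libraries labelled KO against 821 to 1234 TPM in WT, and Fmod is high in 2 of the 3 libraries labelled KO.

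For the other 6 members the SD of the TPM among the 3 libraries labelled KO exceeded the difference between the means. Lumican was at 77.2, 5.75 and 27.9 TPM in scWAT labelled KO, against 47.8, 63.8, 53.5, 47.5 and 59.4 TPM in WT, that is both above and below all WT libraries (log2 difference -1.18, SE 0.62, limma adjusted p = 0.382). Biglycan was at 162, 81.1 and 250 TPM in scWAT labelled KO, against 196 to 258 TPM in WT (log2 difference -0.67, SE 0.31, limma adjusted p = 0.344). Decorin was at 1445, 526 and 1095 TPM in scWAT labelled KO, against 409 to 1278 TPM in WT (log2 difference 0.32, SE 0.43, limma adjusted p = 0.688). These 3 groups of values overlapped, and so did those of the remaining members. Asporin was at 14.8, 6.13 and 28.3 TPM in scWAT labelled KO, against 13.3 to 29.7 TPM in WT (log2 difference -0.58, limma adjusted p = 0.515). Osteoglycin was at 71.2, 11.3 and 68.2 TPM in scWAT labelled KO, against 26.5 to 61.5 TPM in WT (log2 difference -0.13, limma adjusted p = 0.939). Osteomodulin was at 1.68, 0.81 and 3.12 TPM in scWAT labelled KO, against 0.67 to 2.01 TPM in WT (log2 difference 0.21, limma adjusted p = 0.729). A26 had the lowest level of Lum, Bgn, Ogn and Aspn of the 8 scWAT libraries. Without A26 the log2 difference was -0.24 for Lum, -0.24 for Bgn and -0.044 for Aspn, whereas it was -1.998 for Lum without A24, and -1.04 for Bgn and -1.06 for Aspn without A30, none past the threshold. In that library the 6 T cell markers also summed to 510 TPM, where the other 7 scWAT libraries held 9.37 to 17.2 TPM, and the part of these cells in the low values was not tested.

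No member passed in scWAT with all 8 libraries, where 3 of 13682 genes did (0.0219%). Without adjustment 2 members had p under 0.05, Prelp and Fmod, as had 2138 of all genes (limma). Prelp took 16.3%, 36.1% and 35.3% of the family's sum in scWAT labelled KO, against 38.1% to 59.7% in WT, and Dcn 68.2%, 52.4% and 47.8%, against 25.7% to 47.3% in WT. Neither share overlapped between the groups, but shares of 1 sum are tied, so that a higher Dcn share lowers that of Prelp. With Dcn left out of the sum the Prelp share overlapped, at 51.2% to 75.8% in scWAT labelled KO, against 69.5% to 80.4% in WT. The ratio of members to the 5 fibrillar chains was 1.08, 4.11 and 1.74 in scWAT labelled KO, against 0.696 to 2.30 in WT.

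None of the 103 tested genes of the 10 lists passed in scWAT, and 19 had an unadjusted p under 0.05 (limma). Of the 71 tested cell type marker genes 0 passed and 19 had an unadjusted p under 0.05, and without A26 6 of 68 passed (limma). Those were 4 skeletal muscle and 2 cardiomyocyte genes, all higher, in a fit that keeps A24 and A30 with their skeletal muscle transcripts. Of all 13430 genes tested there, 124 were called higher and 6 lower. Over the 11 tested fibrillar and fibril-associated collagens the median log2 difference was -1.29, and the sum of the 14 genes was 2615, 401 and 1757 TPM in scWAT labelled KO, against 1623 to 4323 TPM in WT. The named genes with the smallest p gave Col5a3 at -2.08 (limma adjusted p = 0.225), Col6a2 at -1.58 (0.236), the protease Adamts5 at -1.83 (0.231), the proteoglycan glypican-1 (Gpc1) at -1.26 (0.217), the chondroitin enzymes Chpf2 at -0.83 (0.216) and Dse at -0.56 (0.246), Optc, the gene beside Prelp, at -1.22 (0.231) and B4galt1 at 0.79 (0.216), all limma adjusted p. In the likeness of profiles over the 8 scWAT libraries, the genes closest to Lum were Col1a2 and Col1a1 (0.40 and 0.44 log2 units, with a median of 1.08 over 12198 genes), and those closest to Prelp were Palmd and Map9 (0.14 and 0.18). The closest to Fmod were Rab6b and Tnni3 (0.17 and 0.37), and to Dcn Dab2 and Tmeff2 (0.14 and 0.16). For Bgn they were Dip2a and Plin4, for Ogn Plac9a and Gas1, for Aspn Cacna2d1 and Klhl13, and for Omd Slc4a11 and Calml4.

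Whether the difference between KO and WT itself differed between heart and scWAT was tested with an interaction term over all 16 libraries. The difference was more positive in heart for each of the 8 members, by 0.46 (Omd) to 2.86 (Lum) log2 units relative to the median gene, and none passed the threshold. Of 11536 genes 7 passed (0.0607%). Without adjustment 4 members had p under 0.05, Lum (2.86, limma adjusted p = 0.0935), Aspn (2.64, 0.0923), Bgn (2.43, 0.110) and Prelp (1.67, 0.135), as had 2360 of all genes (limma). Without A29, 6 members passed, against 22.4% of 11624 genes in this direction. These were Lum (3.38, SE 0.72, limma adjusted p = 0.00181), Aspn (3.27, SE 0.49, limma adjusted p = 0.000173), Bgn (3.14, SE 0.44, limma adjusted p = 9.18e-05), Prelp (2.10, SE 0.49, limma adjusted p = 0.00233), Fmod (1.31, SE 0.51, limma adjusted p = 0.0252) and Dcn (1.24, SE 0.49, limma adjusted p = 0.0263). Ogn (limma adjusted p = 0.0705) and Omd (limma adjusted p = 0.0549) did not pass. Fmod and Omd, at means of 0.35 and 0.37 TPM in WT hearts, entered this test only through the hearts labelled KO. The call of Fmod thus says no more than its levels do. Mouse A30 gave both tissues: its heart held 10.5 times the WT mean of Bgn and 4.73 times that of Prelp, while its scWAT held 250 TPM of Bgn and 808 TPM of Prelp, against WT scWAT means of 234 and 994 TPM.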

How the data were processed

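For every library the authors deposited a table of gene symbols with their TPM, as the file headers name the unit. No source used here names the aligner, quantifier, annotation, genome build or strand setting. Per the labels' protocols, RNA of frozen tissue was isolated by Trizol, and libraries were made from total RNA by an Illumina TruSeq kit. TPM keeps no depth, so no counting interval is given. Groups and mouse numbers come from the labels, and the libraries of a group are from different mice.

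Analysis was on log2(TPM + 1), which understates changes of low genes. A gene was tested where its TPM averaged 1 or more over the libraries compared, with limma 3.58.1 (R 4.3.3, eBayes, trend on mean expression, Benjamini-Hochberg, threshold 0.05, 2-sided). For the interaction it had to do so in heart and in scWAT, and for the shared fit over the libraries of the tissue compared. The fit was first tested on simulated data. All 8 members passed this filter in heart and in scWAT, 6 of them also by their WT hearts alone, and 7 in the comparison of WT tissues. Fmod and Omd passed in heart only through the hearts labelled KO, and Fmod passed between WT tissues only through WT scWAT. Each tissue was fitted alone, and an interaction term tested the difference between tissues. Fold changes of KO over WT are printed after subtracting the median of all tested genes, while tests used them before that. Shares and ratios of TPM carry no test. Promoter windows are from RefSeq, GRCm38.p6.

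Named genes are the 8 members, Elavl1, up to 4 genes per list by smallest p, and the nearest 2 profiles of each member, leaving out predicted and sex-linked genes other than Bgn. The members and the lists were chosen with earlier results of these data known. The tendon and cartilage markers, Gpc1 and Spock2 in heart were named after their values were seen.

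Other settings tried were a pseudocount of 0.25 or 5; no filter, or 5 TPM as the minimum; scaling by the median of ratios; quantiles made equal; mitochondrially encoded genes left out; eBayes robust, or with no trend; array weights; 1 fit for all 16 libraries; the 5 scWAT libraries with no genotype in their table names; each library left out in turn; and a replicate block on the mouse. The numbers pair the samples because 5 mice gave both tissues. Over 11536 genes the deviations from the group means of the 4 WT pairs correlated at 0.037 to 0.167, and those of different mice at -0.160 to 0.123.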

Additional observations from a re-analysis of the deposited data

Results flagged for a closer look

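Of 24 sets of 1 member in 1 group of 4 or 5 libraries, 5 held a library far from the rest, where chance flags about 1 in 20 of independent sets. These sets are not independent, because the members share the libraries of a group, so that the count cannot be set against that rate. All flags fell on A29, already singled out above, or on A5. In hearts labelled KO this was A29, the lowest library for Dcn, Fmod and Aspn. Its gap to the nearest other heart labelled KO, as a share of the range of log2(TPM + 1) in that group, was 0.855 for Dcn, 0.969 for Fmod and 0.849 for Aspn. Each was above Dixon's critical value. In WT hearts it was A5, the lowest library for Dcn (0.852) and Bgn (0.895). A5 also had the lowest sum of the 5 fibrillar chains, 26.5 TPM, against 76.7 to 81.2 TPM in the other WT hearts, and the highest share of mitochondrially encoded transcripts, 60.6%, against 51.9% to 53.2%. These values stand beside each other, and their part in the low levels was not tested.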

How the results depend on the processing

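TPM without depth, 3 to 5 mice per group and the position of A29 limit what can be said of the members. In heart no member's fold change turned its sign under any alternative run. Members called higher numbered 0 with all 8 hearts, 8 with array weights, 3 with the shared fit, and 0 to 8 with 1 library left out, the 8 being without A29. Where Fmod or Omd is in these counts, it passed the filter only through the hearts labelled KO. Genes called in either direction numbered 6 with all hearts, 11 without a filter, 2 with a filter of 5 TPM, 7885 with array weights, 846 with the shared fit and 3 to 4705 with 1 library left out (4705 without A29, 3 without A25, A31 or WT A7 or A8). Elavl1 turned to 0.00083 without a filter.

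In scWAT, leaving out 1 library gave 0 to 1 members higher and 0 to 1 lower. Genes called numbered 3, and 6 without a filter, 1 with a filter of 5 TPM, 5 with either other scaling, 80 with array weights, 6 without trend, 179 with the shared fit, 0 in the 5 libraries whose tables are named without a genotype and 2 to 130 with 1 library left out (130 without A26, 75 without A30, 10 without A24). Dcn turned to -0.14 in those 5 libraries, Ogn to 0.44 with array weights and -0.55 to 0.71 with 1 library left out, and Omd ran from -0.083 to 0.51. Within those 5 libraries Prelp was at -1.07 and Fmod at 1.84, neither past the threshold (limma adjusted p = 0.609 and 0.303).

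Between WT tissues, members higher and lower in heart numbered 0 and 6, but 2 and 2 when scaled by the median of ratios, 2 and 3 with equal quantiles and 1 and 5 without mitochondrially encoded genes. Under these 3 settings Ogn turned to 1.35, 1.29 and 0.92 and Aspn to 0.59, 0.58 and 0.17, and Elavl1 turned to 0.10 with both scalings. With 1 library left out Ogn ran from -0.23 to 0.062. Genes called higher and lower numbered 1063 and 10279, and 4272 and 4413 when scaled by the median of ratios.

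For the interaction, members higher numbered 0, and 6 with array weights and 0 to 6 with 1 library left out, where Fmod ran from -0.042 to 1.31. Fmod passed the filter in heart only through the hearts labelled KO. Genes called numbered 7, and 11 with a pseudocount of 5, 17 without a filter, 3 with a filter of 5 TPM, 272 when scaled by the median of ratios, 216 with equal quantiles, 17 without mitochondrially encoded genes, 5263 with array weights and 5 to 2863 with 1 library left out (2863 without heart A29, 94 without scWAT A26, 23 without scWAT A30, 12 without heart A5). With the mouse as a replicate block no member's call changed: 6 were lower in WT heart than in WT scWAT, and 0 passed in the interaction. Where no reason is given, the cause was not tested.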
